A study of Mus musculus with 18 samples.

Results

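A set of 141 probes gave a higher signal in the forelimb digit tips of embryos without Fzd6 than in wild-type embryos at every stage measured, out of 42006 probes on the array. The members were chosen by that difference. For each probe, log2 of the scanner's processed sample signal over its processed reference signal was averaged within each group of arrays. A probe entered the set where the Fzd6-/- (KO) mean exceeded the wild-type (WT) mean by at least 0.8 at all 3 stages and by at least 1 at one or more of them, and where its sample signal was well above background on all 9 KO arrays. These clauses left 209 and then 142 probes, and a last clause, which drops probes that peak at E16.5 in WT, removed 1 of them, Z00076280-1. Because the KO minus WT differences chose the members, those differences are given below as a description. Counts of them past a test's threshold are printed beside their background, and nothing is supported with them.

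Embryos came from crosses of Fzd6+/- mice, with C57BL/6 given as the strain and mixed sex, and were taken at 3 embryonic days, E14.5, E16.5 or E18.5. The 6 groups, WT and Fzd6-/- at each stage, held 3 arrays each, 18 in all, with RNA taken per embryo according to the design text. Digit-tip RNA was labelled with Cy3 throughout. Cy5 labelled one common reference, in which pooled RNA of mouse cell lines was combined with 129ES cell RNA. The labels name no further allele or treatment, and the deletion is not described as limited to a cell type, so a group compares whole dissected tips of germline genotypes.

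Frizzled proteins are cell-surface receptors for Wnt ligands, and Frizzled 6 is best known for planar cell polarity in the skin, where it orients hair follicles. In the digit it is needed for normal nails, and its loss leads to misshapen nails and claws. During the stages sampled the nail field on the dorsal digit tip forms, folds inwards and begins to build the keratinised plate, while the skin around it stratifies. The array names its probes only by ID, and no table used here pairs those IDs with genes. The level of Fzd6, the markers of nail, skin and other cell types, and the pathway lists were therefore not analysed here, and members are described by ID, sequence and value. In such whole-tissue RNA a larger share of cells of one type and more RNA per cell cannot be told apart.

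The probes are 60 bases long, and some members read the same or closely related RNA. The sequences shown first are those of members that overlap one another, because they show members that do not count as separate findings. The following pair, with both members among the 4 largest mean differences of the set, shares 53 identical bases, shown in capitals.
Z00073883-1: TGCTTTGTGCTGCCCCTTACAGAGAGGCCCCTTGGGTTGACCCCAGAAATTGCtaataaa
Z00071847-1: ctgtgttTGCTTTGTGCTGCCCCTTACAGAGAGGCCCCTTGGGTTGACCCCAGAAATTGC

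Both members of the next pair were well above background on no WT array. They share a run of 46 identical bases, again in capitals, and the sequences differ just before it.
Z00075832-1: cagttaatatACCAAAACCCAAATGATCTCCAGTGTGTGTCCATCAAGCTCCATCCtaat
Z00033344-1: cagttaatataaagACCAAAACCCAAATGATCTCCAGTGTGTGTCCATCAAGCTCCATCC

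A group of 4 members carries versions of one sequence. In the window of 38 bases that all 4 cover, capitals mark the 32 bases at which the 4 are identical, and lower case inside that window marks where they differ.
Z00076669-1: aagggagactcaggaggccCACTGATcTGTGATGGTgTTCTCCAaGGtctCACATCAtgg
Z00030773-1: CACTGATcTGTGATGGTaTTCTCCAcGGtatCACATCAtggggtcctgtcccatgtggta
Z00075833-1: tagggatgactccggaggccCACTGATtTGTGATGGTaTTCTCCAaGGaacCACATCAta
Z00073950-1: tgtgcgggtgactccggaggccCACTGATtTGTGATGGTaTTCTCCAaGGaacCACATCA

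A further pair is shown because its KO values moved with those of Z00076669-1, as given below. Capitals mark the identical run of 23 bases.
Z00049715-1: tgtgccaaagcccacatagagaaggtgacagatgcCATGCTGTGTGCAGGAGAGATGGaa
Z00049863-1: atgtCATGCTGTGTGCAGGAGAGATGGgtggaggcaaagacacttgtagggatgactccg

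In all, 20 members fell into 9 such clusters, 1 of 4 members and 8 pairs, where probes were linked by an ungapped overlap of at least 25 bases at 85% identity or more, or by an identical run of at least 20 bases. The other 121 members had no linked member. The run GGAGGCCCACTGAT is the longest that Z00076669-1, Z00075833-1 and Z00073950-1 all hold, and it was picked after the sequences of the group of 4 were seen. Searched on both strands, it occurred in 3 of the 42006 probes, which were these same 3 members. That these members carry it was fixed by the choice, and no other probe did. None of the 141 members shared 25 bases with the RefSeq promoter windows or the RefSeq miRNA sequences (GRCm38.p6) used here.

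Shown next are 6 of the members with the largest differences outside these clusters, since values below turn on them. Capitals mark AATAAA, the hexamer best known as the polyadenylation signal near the 3′ end of mRNAs.
Z00027416-1: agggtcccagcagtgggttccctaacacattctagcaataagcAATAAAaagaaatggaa
Z00042912-1: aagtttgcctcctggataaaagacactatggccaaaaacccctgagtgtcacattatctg
Z00070658-1: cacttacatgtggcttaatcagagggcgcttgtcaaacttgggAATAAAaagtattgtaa
Z00035390-1: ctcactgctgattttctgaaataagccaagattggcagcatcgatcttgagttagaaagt
Z00074621-1: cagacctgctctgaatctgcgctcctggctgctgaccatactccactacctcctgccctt
Z00064409-1: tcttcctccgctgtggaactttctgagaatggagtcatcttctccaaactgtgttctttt

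The hexamer AATAAA was found on the printed strand of 7.80% of the members and of 7.69% of the 27989 probes tested. The median GC content was 43.3% in the members (26.7% to 66.7%) and 45.0% in the probes tested. In neither feature did the members stand far from the rest of the array.

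From here on, a level is the log2 ratio of sample over reference after normexp background correction and loess normalization of the deposited intensities, and a difference is a difference of such levels. This scale, unlike the scanner's own, adds an offset to weak spots and so draws in the differences of dim probes. On it the mean KO minus WT difference over the 3 stages had a median of 0.94 over the 141 members, from 0.11 to 3.41. It reached 2 in 11 members, lay from 1 to under 2 in 53 and was under 1 in 77. Over all probes tested the median was 0.02.

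By stage, the median difference of the members was 1.00 at E14.5, 0.98 at E16.5 and 0.77 at E18.5, against -0.00, 0.02 and 0.03 over all probes tested. At E14.5 all 3 KO arrays lay above all 3 WT arrays in 133 of the 141 members, where 19.5% of all probes tested did so. The count was 121 at E16.5, beside 15.7%, and 101 at E18.5, beside 14% of all probes. All 3 stages separated in this way in 91 members (1.78% of all probes). Since the rule asked for these differences, nothing is read from the counts.

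With limma's moderated test over all probes at an adjusted p under 0.05, the members called higher in KO numbered 109 at E14.5, 105 at E16.5 and 80 at E18.5. The background was 3.72%, 6.08% and 5.72% of all probes tested, in that order. No member was called lower at any stage, where 5.22%, 6.14% and 3.13% of all probes were. Of the 141 members, 69 were called at all 3 stages (0.607% of all probes were) and 20 at none. The rule fixed the direction of these counts, which are no evidence for the differences.

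**Figure D1:**
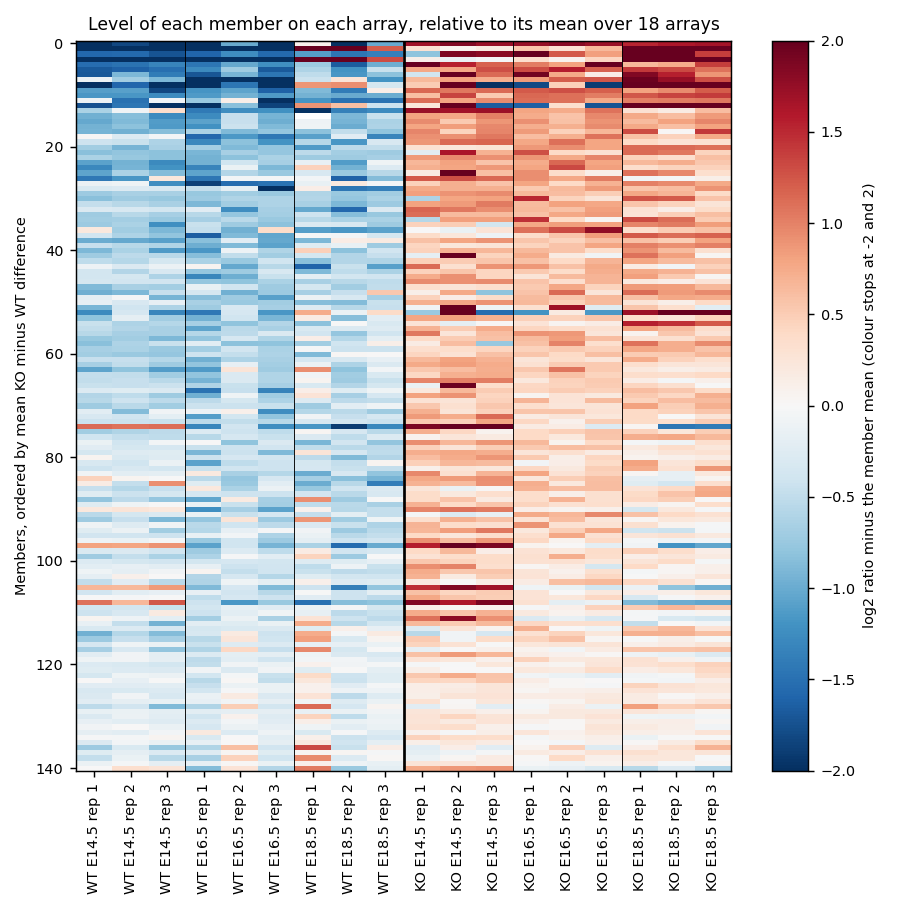
Levels of the 141 members (rows, ordered by mean KO minus WT difference, largest at the top) on the 18 arrays (columns, WT left and KO right of the thick line, thin lines between stages), each as log2 ratio minus the member's mean over all arrays. The member medians of all 9 KO arrays lie between 0.33 and 0.50 before that centring and those of all 9 WT arrays between -0.56 and -0.07, and rows with a strong change from stage to stage stand out.

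The median level over the members was 0.33 to 0.50 on the KO arrays and -0.56 to -0.07 on the WT arrays. The value of -0.07 belonged to replicate 1 of WT E18.5, while the other two arrays of that group had -0.40 and -0.33. Of the 29 members whose 3 WT E18.5 values spanned more than 1, 18 were highest on this array and 20 were lowest on replicate 2. Replicate 1 also carried 34 outlier spots, more than any other array, and without it 86 instead of 80 members were called at E18.5. That rise is not particular to it, since 87 were called without replicate 2 of WT E16.5, an array outside that comparison. Leaving out replicate 1 of WT E18.5 also gave the highest such counts at E14.5 (115) and E16.5 (113). All groups share one estimate of the spread, so a count can move with an array outside its comparison. The part of replicate 1 of WT E18.5 in the smaller median difference at E18.5 was not tested.

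The largest fitted mean difference, 3.41, was that of Z00027416-1. Its levels on replicates 1, 2 and 3 were -3.75, -3.16 and -3.89 in WT at E14.5, -3.94, -2.36 and -3.41 at E16.5, and -1.25, -3.35 and -2.35 at E18.5. In KO they were 0.34, 0.51 and 0.37, then 0.39, 0.47 and 0.38, then 0.18, 0.28 and 0.31. The KO arrays were level over the stages and close to one another, while the WT arrays lay far below them and scattered, with no overlap. The probe was well above background on no WT array at E14.5 or E16.5 and on 2 of 3 at E18.5, so the difference is a bound at the earlier stages, at least 12.9-fold at E14.5 and at least 9.98-fold at E16.5.

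The overlapping probes Z00073883-1 and Z00071847-1 read alike. Z00073883-1 measured -4.70, -4.55 and -5.09 in WT at E14.5, -4.16, -3.62 and -4.04 at E16.5, and 1.56, 3.46 and 0.42 at E18.5. Its KO values were -0.48, -0.72 and -0.62, then -0.23, -0.50 and -0.14, then 3.25, 3.07 and 2.89. Both genotypes were far higher at E18.5, and the KO arrays lay far above the WT arrays at the earlier stages and among them at E18.5. The difference was 4.18 at E14.5, 3.65 at E16.5 and 1.25 at E18.5 (standard error 0.48 each), and at E18.5 the groups overlapped, since replicate 2 of WT lay above all 3 KO arrays. Z00071847-1 differed by 3.83, 3.28 and 1.21 at the 3 stages (standard error 0.47).

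Z00042912-1 was far above WT on most KO arrays of each stage. Its KO levels were 0.25, 2.92 and 2.85 at E14.5, 3.50, 2.28 and 1.88 at E16.5 and 3.36, 3.15 and 2.43 at E18.5. On the 9 WT arrays it lay between -0.68 and -0.05, below every KO array, and only 1 WT array, at E18.5, was well above background. One KO array, replicate 1 at E14.5, was close to the WT level while the other 8 were far above it. The KO level was at least 5.65-fold higher than WT at E14.5 and at least 7.79-fold higher at E16.5.

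Z00035390-1 and Z00034102-1 were well above background on all 18 arrays and the genotypes did not overlap at any stage. Z00035390-1 measured -2.74, -2.68 and -2.58 in WT and -0.28, -0.28 and 0.22 in KO at E14.5. At E16.5 it measured -2.33, -1.77 and -2.73 against 0.25, 0.52 and 0.11, and at E18.5 -1.69, -2.25 and -1.50 against 0.35, 0.26 and 0.02. No WT array reached the lowest KO array at any stage, and the differences were 2.55, 2.57 and 2.02 (standard error 0.23). For Z00034102-1 they were 2.45, 2.52 and 1.71 (standard error 0.29).

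Z00070658-1 was higher in KO at each stage. Its KO levels at E14.5 were 2.67, 2.12 and 1.76 against WT levels of -0.95, -0.89 and -0.74, and its differences were 3.05, 2.51 and 2.05 from stage to stage (standard error 0.31). Of the 9 WT arrays, 5 were well above background. All 9 KO arrays, the lowest at 1.23, lay above all 9 WT arrays, the highest at -0.15.

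Z00074621-1 stood apart through its WT course. In WT it measured 1.55, 0.98 and 0.77 at E14.5, -0.97, -0.59 and -0.83 at E16.5 and 1.25, 1.93 and 0.48 at E18.5, while the KO arrays read 2.32, 2.48 and 2.39, then 2.53, 2.87 and 2.92, then 3.63, 3.41 and 2.96. WT was lowest at E16.5 and KO was not, so the difference was 1.30, then 3.57, then 2.11 (standard error 0.28). The KO arrays lay above all WT arrays at each stage.

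Z00064409-1 was close to background on most WT arrays, and Z00057410-1 was not. Z00064409-1 measured 1.53, 2.29 and 1.45 in KO at E14.5, 2.08, 2.04 and 1.96 at E16.5 and 2.17, 2.29 and 2.34 at E18.5, against WT values from -0.33 to -0.01 on all 9 arrays. Of the 9 WT arrays 2 were well above background, none of them at E18.5, where KO was at least 4.26-fold higher. Z00057410-1 was well above background everywhere and differed by 1.50, 2.04 and 2.41 (standard error 0.47). Its KO arrays lay within 0.41 to 0.77 at all stages, while the WT arrays ranged from -2.84 to -0.23.

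**Figure D2:**
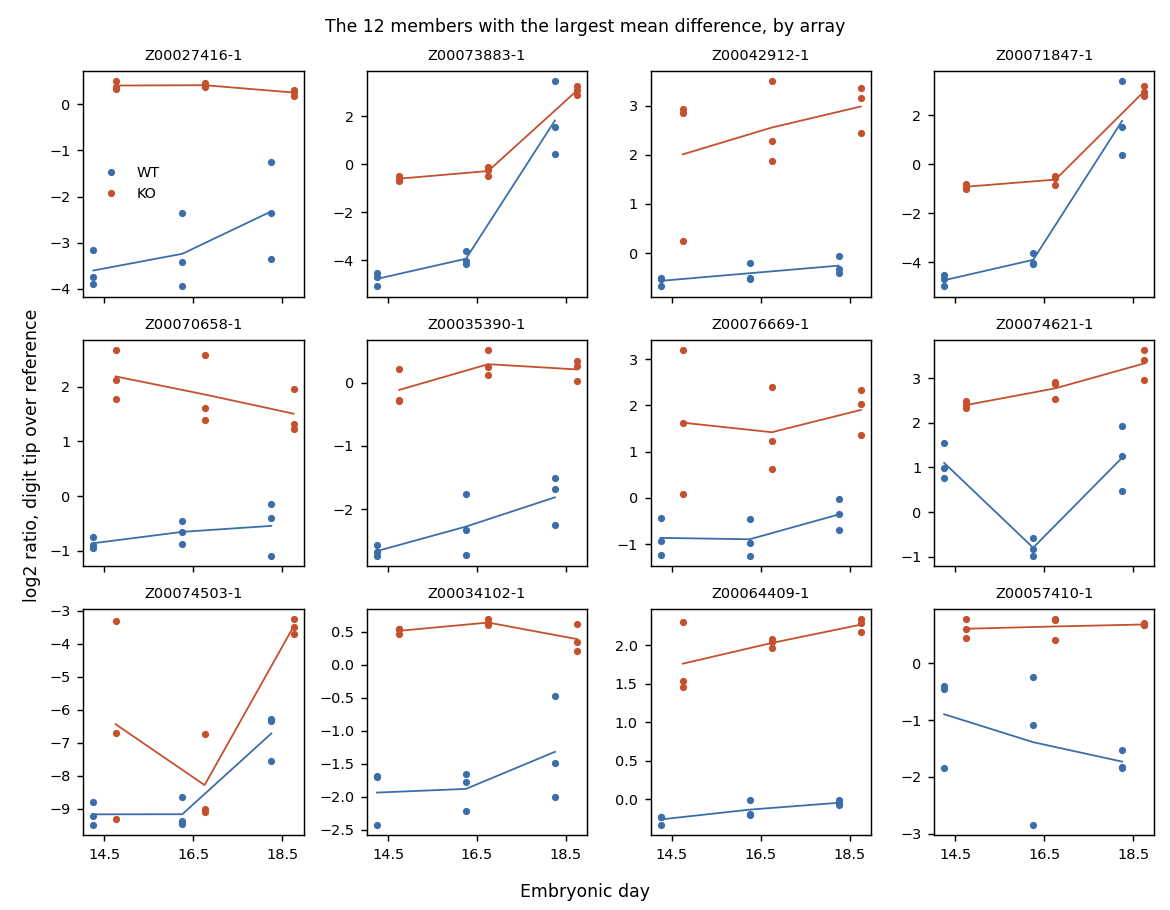
The 12 members with the largest mean KO minus WT difference, with log2 ratio of digit tip over reference (vertical axes, scaled per panel) against embryonic day, each point an array (3 per group, WT blue, KO orange-red) and lines through the group means. Z00027416-1 and Z00034102-1 are level in KO, Z00073883-1 and Z00071847-1 are much higher at E18.5 in both genotypes with 1 WT array above all KO arrays, and Z00074503-1 has KO arrays from -9.29 to -3.30 at E14.5.

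The members differed in how the genotype difference ran over the stages. As fitted, it was largest at E14.5 in 75 members, at E16.5 in 41 and at E18.5 in 25, an order that is not firm for members dim in WT. In 75 members the 3 differences lay within 0.5 of one another, the median distance between the largest and the smallest being 0.46, and in 5 members it exceeded 2. On this scale 135 members were above 0 at all stages, and 6 were at or below 0 at E18.5 although the scanner's signals had put them at 0.85 or more. The lowest of these was Z00016073-1, which differed by 0.64 at E14.5, 0.20 at E16.5 and -0.51 at E18.5.

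**Figure D3:**
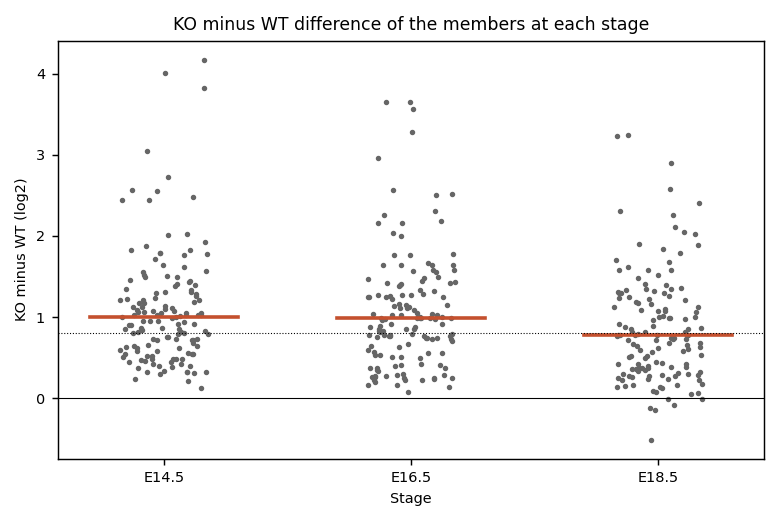
KO minus WT difference (log2, normexp and loess) of each of the 141 members (grey points, spread sideways for sight) at each stage, with the median as a red bar, 0 as a solid line and 0.8 as a dotted line. Medians are 1.00, 0.98 and 0.77, and the 6 members at or below 0 are at E18.5.

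How often the members were measurable in WT varied widely. Well above background on all 9 WT arrays were 84 members, on 4 to 8 arrays 33, on 1 to 3 arrays 20 and on none 4. The 4 were Z00075832-1, Z00033344-1, Z00030773-1 and Z00024225-1. As the rule asked for a KO signal above background on all 9 arrays, every member passed the filter on low signals through KO, and for the dimmest in WT only a bound can be given. On the scanner's processed scale, the KO mean of 101 members lay above the reference pool.

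Z00075832-1 measured -0.07, 1.33 and 1.35 in KO at E14.5, 2.05, 0.99 and 0.81 at E16.5 and 1.79, 1.77 and 1.11 at E18.5, and -0.30 to -0.04 on the WT arrays. Its partner Z00033344-1 measured -0.04, 1.35 and 1.35, then 1.98, 0.92 and 0.57, then 1.83, 1.64 and 1.03, with WT at -0.22 to -0.01. In both, replicate 1 of KO E14.5 sat near the WT arrays and replicate 1 of KO E16.5 was the highest of its group. The KO level was at least 2.06-fold higher for Z00075832-1 at E14.5, and for Z00033344-1 it was at least 1.96-fold higher at E14.5 and at least 2.96-fold at E18.5. These bounds compare group means. At the other stages of the pair the computed bound exceeded the fitted fold and is not given.

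The group of 4 with one shared sequence varied strongly between KO arrays of one stage. Z00076669-1 measured 0.07, 3.19 and 1.61 at E14.5, 2.41, 1.23 and 0.62 at E16.5 and 2.32, 2.02 and 1.35 at E18.5, against WT levels between -1.24 and -0.03. Z00075833-1 measured 0.18, 2.51 and 0.80, then 1.10, 0.54 and 0.28, then 1.45, 1.18 and 0.39. Replicate 2 was the highest and replicate 1 the lowest at E14.5 in both, while replicate 1 was the highest at E16.5 and E18.5. Z00073950-1 was highest on replicate 2 at E14.5 (2.79) and at E16.5 (1.92), and its lowest KO array, at -0.03, lay at the top of the WT range of -0.69 to -0.03. Where no WT array of a stage was well above background, KO was at least 2.41-fold higher at E14.5 and at least 1.72-fold higher at E16.5 for Z00075833-1. At E16.5 it was at least 2.14-fold higher for Z00073950-1 and at least 1.91-fold higher for Z00030773-1.

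Other members followed Z00076669-1 from array to array within KO. After the mean of each KO group was taken off, 5 of the other 140 members (3.57%) had a Pearson r of at least 0.9 with it over the 9 KO arrays, and 54 of the other probes tested (0.193%) did. The 5 were Z00049863-1 (r = 0.99), Z00049715-1 (0.96), Z00075833-1 (0.95), Z00035938-1 (0.94) and Z00042912-1 (0.91). Z00049863-1 and Z00049715-1 are the pair shown above with a common run of 23 bases. Since Z00049863-1 also ends in the bases with which Z00075833-1 begins, these members may not be separate findings. The measure was chosen after these values were seen, the points share their hybridisations, and the arrays include both scan batches, so it stands as a description.

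A second group of members followed Z00009495-1 in the same measure, 6 of the other 140 members (4.29%) beside 245 of the probes tested (0.876%). It held Z00074503-1 (r = 1.00), Z00034420-1, Z00023218-1, Z00073950-1, Z00025854-1 and Z00004614-1. Z00009495-1 measured -6.30, -3.01 and -8.21 in KO at E14.5, -8.18, -6.20 and -8.26 at E16.5 and -3.06, -3.24 and -3.54 at E18.5. Replicate 2 was the highest at E14.5 and at E16.5, and replicate 3 of E14.5 lay within the WT range of -8.59 to -7.98. It is the probe of the group with the 9 WT arrays farthest below the reference after Z00074503-1, whose WT arrays reached down to -9.48.

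Across the set, 14 members (9.93%) had KO E14.5 values that spanned more than 1, where 1.26% of all probes tested did, and 13 of the 14 were highest on replicate 2. At KO E16.5 the count was 9 members (6.38%, beside 0.940%), and at KO E18.5 it was 5 (3.55%, beside 1.35%). In WT the counts were 5 at E14.5 (3.55%, beside 0.254%), 21 at E16.5 (14.9%, beside 4.14%) and 29 at E18.5 (20.7%, beside 9.47%). One array of KO E14.5 thus carried the highest value of nearly all members that varied most in that group. Without tissue markers, its part in their differences was not tested.

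The rule used each KO group's mean and asked for signal on all 9 KO arrays, but set no condition on the change between KO stages, for which limma was run over all probes. The background probes met no such conditions, so their shares are given for scale and not as a comparison. From E14.5 to E16.5 in KO, 7 members rose (4.96%, beside 12.2% of all probes), 24 fell (17.0%, beside 11.5%) and 110 were not called, with a median change of -0.09 against -0.02 over all probes. From E16.5 to E18.5, 13 members rose (9.22%, beside 13.8%) and 14 fell (9.93%, beside 13.1%), with a median of -0.01. Over the whole span 25 rose (17.7%, beside 24.3%), 40 fell (28.4%, beside 25.7%) and 76 were not called.

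Some of these counts rested on single arrays. The rises from E14.5 to E16.5 numbered 4 without replicate 3 of KO E14.5 and 4 without replicate 3 of KO E16.5, and the falls numbered 15 without replicate 2 of KO E16.5. From E16.5 to E18.5 the rises numbered 6 without replicate 2 of KO E16.5 and 8 without replicate 1 of KO E18.5. The falls there numbered 5 without replicate 2 of KO E18.5, 6 without replicate 3 of KO E16.5 and 9 without replicate 3 of KO E18.5.

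Step by step, 90 members were called in neither KO step. A further 19 fell only in the earlier step, 13 rose only in the later step, 7 fell only in the later step, 5 fell in both, 5 rose only in the earlier step and 2 rose and then fell. No share of all probes stands beside these patterns, so nothing is read from their counts.

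Z00073883-1 and Z00071847-1 had the largest rises over the span, 3.68 (standard error 0.48, limma adjusted p = 1.16e-05) and 3.91 (standard error 0.47, adjusted p = 5.23e-06), nearly all of it after E16.5. Of the other members in the group of largest differences, Z00074503-1 rose by 2.96 (standard error 1.01, limma adjusted p = 0.0233), Z00074621-1 by 0.93 (adjusted p = 0.0125) and Z00064409-1 by 0.51 (adjusted p = 0.0131). The remaining 7 did not pass the test over this span. The KO minus WT difference of Z00074503-1 was 2.73, 0.88 and 3.24 from stage to stage (standard error 1.01) and was called at no stage. Its KO and WT arrays overlapped at E14.5 and E16.5. Within KO, its replicate 2 at E14.5 (-3.30) lay within the range of the E18.5 arrays (-3.69 to -3.25).

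The 4 next largest rises among the other members were those of Z00009495-1, Z00023218-1, Z00025332-1 and Z00034555-1. Z00009495-1 rose by 2.56 (standard error 0.90, limma adjusted p = 0.0269), with the wide spread between KO arrays given above. Its replicate 2 of KO E14.5 lay above all 3 KO arrays at E18.5. Z00023218-1 rose by 2.11 (standard error 0.76, limma adjusted p = 0.0292). In KO this probe measured -2.66, 0.68 and -3.46 at E14.5 and -0.22, 0.30 and 0.81 at E18.5, so the stages overlapped. Z00025332-1 measured 1.20, 0.74 and 0.95 in KO at E14.5, 1.21, 0.99 and 1.07 at E16.5 and 2.48, 2.37 and 2.15 at E18.5, a rise of 1.37 (standard error 0.17, adjusted p = 5.71e-06). All 3 arrays at E18.5 lay above all 6 earlier KO arrays. In WT the same probe lay between 0.11 and 0.92 at all stages, and its difference was 0.58, 0.85 and 1.78. Z00034555-1 rose by 1.01 (standard error 0.18, adjusted p = 0.000287).

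The 4 largest falls in KO were those of Z00076515-1, Z00054473-1, Z00006521-1 and Z00077108-1, and WT was lower at E18.5 than at E14.5 in each. Z00076515-1 measured 2.43, 3.14 and 2.74 in KO at E14.5, 0.70, 0.69 and 0.27 at E16.5 and 0.59, -0.90 and -0.86 at E18.5, a change of -3.16 (standard error 0.34, limma adjusted p = 1.78e-06). In WT it measured 1.68, 1.63 and 1.66, then -0.77, 0.16 and -0.70, then -0.63, -1.35 and -0.75. Both genotypes were lowest late, KO stayed above WT on average, and at E18.5 the arrays overlapped. Z00054473-1 changed by -2.76 (standard error 0.21, adjusted p = 3.6e-08), Z00006521-1 by -2.60 (standard error 0.27, adjusted p = 9.81e-07) and Z00077108-1 by -2.30 (standard error 0.24, adjusted p = 9.54e-07).

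In WT the members changed between stages as follows, as a description, since one clause of the rule used the WT stages. From E14.5 to E16.5, 1 member was called up (12.7% of all probes were) and 21 down (15.6%). From E16.5 to E18.5, 11 were called up (7.38%) and 0 down (9.96%). Over the span, 17 were called up (18.9%) and 16 down (25.2%). By call, 62 members were called in neither genotype over the span, 13 down in both, 6 up in both, 27 down in KO only by the threshold, 19 up in KO only, 11 up in WT only and 3 down in WT only. Whether the change of a member differed between genotypes was not tested in these counts. The patterns by call have no share of all probes beside them, so nothing is read from them.

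The WT counts also moved with single arrays. From E14.5 to E16.5 the members called up numbered 0 without replicate 1 or without replicate 3 of WT E14.5, 2 without replicate 3 of WT E16.5 and 4 without replicate 2 of WT E18.5. From E16.5 to E18.5 those called up numbered 7 without replicate 1 of WT E16.5, 22 without replicate 2 of WT E16.5 and 20 without replicate 2 of WT E18.5, and those called down 2 without replicate 2 or without replicate 3 of WT E16.5.

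**Figure D4:**
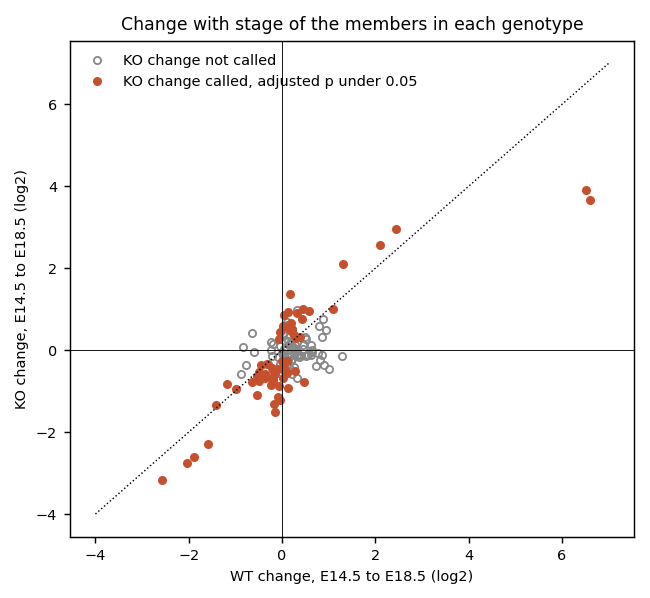
Change from E14.5 to E18.5 of each of the 141 members in KO (vertical axis, log2) against WT (horizontal axis, log2), filled where the KO change was called by limma and open where it was not, with a dotted line of equal change. Of the 141 members 90 have the same sign in both genotypes, and Z00073883-1 and Z00071847-1 lie far right at 6.60 and 6.52 in WT against 3.68 and 3.91 in KO.

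The KO change and the WT change over the span had the same sign in 90 of the 141 members. Their correlation across members was r = 0.80 (n = 141), a description, since members are not replicates, some share a sequence, and a few far points such as Z00073883-1 and Z00071847-1 weigh on it.

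Members near the threshold show what the choice of 0.8 decided. Just inside, on the scanner's scale the rule used, were Z00017027-1 (0.81 at its lowest stage), Z00070976-1 (0.81), Z00052099-1 (0.81) and Z00076515-1 (0.81), each lowest at E18.5. Just outside were Z00036478-1, with 0.79 at E14.5, Z00061116-1, whose largest difference was 0.99, Z00019330-1, with 0.79 at E16.5 beside 1.47 and 2.18, and Z00030961-1, whose largest was 0.98. These 8 probes differ little in the values that divided them.

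A few probes outside the set overlap a member in sequence, 7 in all, of which 5 were tested and lie on the same strand. Z00027043-1, identical to Z00049863-1 at 30 of 31 bases, differed by 3.17, 3.07 and 3.57 on the rule's scale and was left out because only 8 of 9 KO arrays were well above background. Z00071753-1 shares a run of 30 bases with Z00030810-1 and differed by 0.76, 1.47 and 1.37, so it missed the threshold at E14.5 alone. In contrast, Z00060232-1 matched Z00060608-1 at 46 of 51 bases and differed by -0.38, -0.44 and -0.17, and Z00033325-1 matched Z00075832-1 at 30 of 35 bases and differed by 0.15, 0.00 and -0.10. Z00075394-1, with a run of 23 bases in common with Z00049474-1, differed by 0.53, 0.41 and -0.43. A related probe therefore did not always share the difference.

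The values of the separate channels are on the scanner's processed signals, which chose the members, so they are a description. With Cy3 alone, scaled to each array's 75th percentile, the mean KO minus WT difference of the members had a median of 1.59 (0.27 to 7.38) and reached 0.8 in 139 members. Over all probes tested the median was 0.03 in Cy3 and -0.00 in Cy5. In Cy5, which held the same reference on every array, the median of the members was 0.04 and the range -1.18 to 1.03, with a size of 0.5 or more in 7 members. For Z00054473-1 the reference channel carried most of the difference on these signals, 0.27 in Cy3 and -1.18 in Cy5. After normexp and loess its mean difference was 0.55. Among the 12 members with the largest differences, Z00064409-1 had a Cy5 difference of -0.57 beside 4.30 in Cy3.

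Slides and genotypes were mixed only in part. At E16.5 and E18.5 no slide held both genotypes, so slide and genotype cannot be told apart there. At E14.5 replicate 3 of both genotypes shared one slide, and on it the members' median difference was 0.93, with 137 of 141 above 0. Within the first scan batch (replicates 1 and 2) the medians were 0.99, 0.94 and 0.73 from stage to stage, and within the second (replicate 3) 0.93, 0.97 and 0.68. The medians within each scan batch lay close to those over all arrays. The rule chose the members on means of these same arrays, and no share of all probes stands beside the 137, so these values are a description. The part of slide or scan batch in the differences was not tested.

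The size of a difference depended on how weak spots were treated. On the scanner's processed signals, which chose the set, every member reached 0.8 at all stages, while after normexp and loess 50 of the 141 did and 58 had a mean under 0.8. The members dim in WT moved most. Over the alternatives the mean difference of Z00027416-1 ran from 3.24 to 7.48 and that of Z00042912-1 from 2.50 to 6.14, whereas that of Z00034102-1, well above background on all arrays, ran from 2.11 to 2.37. Not every member well above background on all arrays was as steady. Z00027661-1 differed by 3.00, 3.16 and 2.81 from stage to stage on the scanner's signals and by 1.78, 1.64 and 1.36 after normexp and loess.

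**Figure D5:**
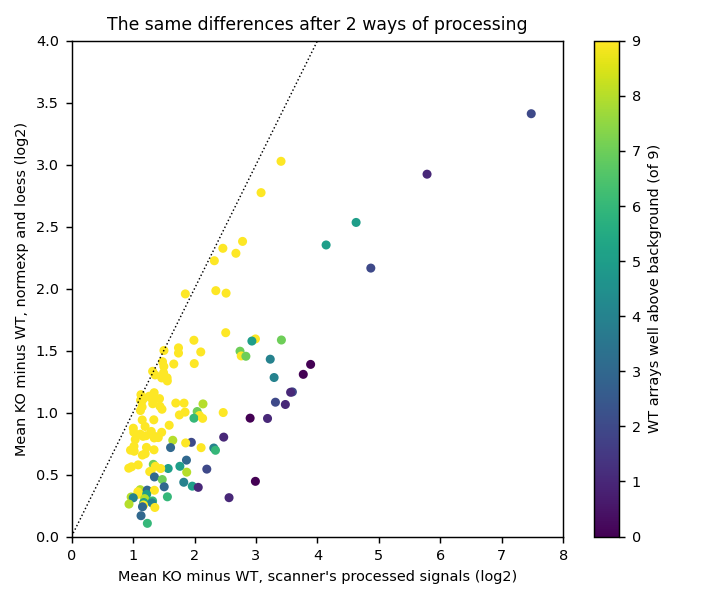
Mean KO minus WT difference of each of the 141 members after normexp and loess (vertical axis, log2) against the same mean from the scanner's processed signals that chose the set (horizontal axis, log2), coloured by the number of WT arrays (0 to 9) on which the member was well above background, with a dotted line of equality. Members seen on all 9 WT arrays lie near or below the line, and members seen on few or none lie farthest below it, Z00027416-1 at 3.41 on the vertical axis.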

How the data were processed

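Digit-tip RNA (Cy3) and a common reference (Cy5) were measured on 18 arrays in 6 groups of 3. Per the file headers, the deposited scanner output is spot intensity from Agilent Feature Extraction 9.5.1.1, raw and processed (background-subtracted and dye-normalized). The value table, deposited on a log10 scale that its notes do not state, lists 25030 probes. Set against the scanner values of the same array with probes centred, its columns followed the log10 ratio of sample over reference, so scale and direction come from that comparison, and the origin of a constant per probe stays unknown. Its column medians were 2.44 to 2.48.

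The rule was applied to log2 ratios of the deposited processed intensities. Levels were computed with limma 3.58.1 in R 4.3.3 (normexp, offset 50, loess within arrays), control and outlier spots left out. A probe was tested if well above background on all 3 arrays of a group with at least 2 values in each, leaving 27989. One mean per group was fitted over 18 arrays, and two-sided p-values were adjusted by Benjamini-Hochberg over all probes tested, with a threshold of 0.05. The p-values measure the spread between arrays. Of the arrays' probes, 59.8% to 69.2% were well above background and none was saturated in Cy3. For bounds, the dim WT group took the lowest signal that was well above background on the array, or its own where that was greater. A bound is printed only where it put KO above WT and did not exceed the fitted fold. Others were left out, such as 2.55 against a fitted 2.42 for Z00033344-1 at E16.5. The bounds come from group means and do not take in the spread between arrays. A dye effect can enter them, because no array had its dyes exchanged. The procedure was tested on simulated data.

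The members, sequence groups and lists were chosen with earlier results of these data known. Named members are the 12 with the largest mean difference, the 4 largest KO rises and 4 largest KO falls from E14.5 to E18.5 among the rest with an adjusted p under 0.05, the 4 nearest inside and 4 nearest outside the thresholds, and members that overlap. Others named were chosen after their values were seen. Same-numbered arrays deviated together between KO E14.5 and KO E16.5 (correlations 0.177 to 0.349) and between WT E16.5 and KO E16.5 (0.287 to 0.508). Between KO E16.5 and KO E18.5 the correlations were 0.095 to 0.191. The other pairs of groups compared ran from -0.717 to 0.457. The lowest was replicate 2 of WT E16.5 with WT E18.5, and the highest replicate 2 of WT E14.5 with WT E16.5.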

Additional observations from a re-analysis of the deposited data

How the results depend on the processing

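The rule applied to other processings gave 55 members after normexp and loess (50 of them shared), 58 without background subtraction, 90 from the value table, which lists only part of the array, 116 after median centring, 153 with Cy3 alone and 134 to 151 with 1 array left out. Counts over the 141 members were set against 7 and 24 members up and down from KO E14.5 to E16.5, 13 and 14 from KO E16.5 to E18.5, 1 and 21 from WT E14.5 to E16.5, 11 and 0 from WT E16.5 to E18.5, and 109, 105 and 80 higher in KO by stage. Median centring gave 3 and 11 for the earlier KO step, 6 up for the later one, 0 and 12 for the earlier WT step, 3 up for the later one, and 69 at E14.5 and 44 at E18.5 higher in KO. The first scan batch alone gave 2 and 11 in the earlier KO step, 5 down in the later, 0 up in the earlier WT step, and 62, 61 and 42 higher in KO, with fewer arrays. Fits of only the 6 arrays compared gave 46 at E18.5 and 3 up in each WT step. The WT steps were 2 and 41, then 29 and 11, with the scanner's processed signals, 2 and 32, then 23 and 6, without background subtraction (23 down from KO E16.5 to E18.5), 4 and 37, then 34 and 7, with Cy3 alone, and 2 up, then 19 and 7, from the value table. The cause was not tested. With 1 array left out the counts ran from 4 to 8 up and 15 to 27 down in the earlier KO step, 6 to 15 and 5 to 18 in the later, 0 to 4 and 16 to 22 in the earlier WT step, 7 to 22 and 0 to 2 in the later, and 86 to 115, 87 to 113 and 60 to 87 higher in KO. The replicate block, the pairing by number, gave 7 up and 21 down, 10 up and 15 down, and 103, 102 and 79 higher in KO, and it moved no count by over 1.5 times. For the members named by the largest differences, KO rises and falls and the inner threshold, no mean difference over the stages reversed in the settings run. The rule chose them by that direction on these same arrays, so this is no support for the differences. A single stage could reverse, as given above for Z00016073-1 at E18.5. Signal over background limits the dim members: the 57 that were not well above background on every WT array have differences that depend on the background correction. Members well above background on every WT array could also change in size with the processing, as given above for Z00027661-1.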
